A study of Mus musculus with 12 samples.

Results

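The interferon-inducible p200 family, also called the PYHIN family, was described in M2-like polarized BMDM, which are macrophages grown from mouse bone marrow. Members were the rows of the unnormalized count table whose gene symbols matched 10 listed names, Ifi203, Ifi204, Ifi205, Ifi207, Ifi208, Ifi209, Ifi211, Ifi213, Mnda and Aim2. Mnda is a RefSeq synonym of Ifi211, so the 10 names gave 9 of the 56748 genes listed. The table held 5 other genes of the family, Ifi206, Ifi214, Mndal, Ifi202b and the pseudogene Ifi203-ps, and these were described beside the members. All 9 members passed the filter on low counts, and 15033 genes were tested.

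The macrophages came from C57BL/6J mice, were grown with M-CSF at 20 ng/mL and received IL4 at 10 ng/mL for 48 hours, and these steps were common to all groups. For the next 72 hours they were held in 1 of 4 conditions, each with 3 libraries. The untreated control received no supernatant, and the eGFP supernatant came from YUMM5.2 eGFP melanoma cells treated with Dox at 1 µg/mL for 72 hours. The Ifnb1eGFP supernatant came from YUMM5.2 cells in which Dox drives Ifnb1 together with eGFP, treated in the same way and diluted to 1500 pg/mL IFNβ, and rIFNβ was recombinant protein at an equal concentration without tumor cell products. The series' design text gives 3 mice per condition. Each supernatant came from 1 transduced melanoma line. RNA was measured as total RNA sequencing, with 31526034 to 45348457 counts per library. Levels are given as CPM, the count scaled to the TMM-adjusted library total. The 7 macrophage markers summed to 14100 to 18500 CPM in the libraries without IFNβ and 9650 to 10600 CPM with it. Of these, Lyz2 and Itgam were lower in both IFNβ comparisons, Adgre1, Cd68, Fcgr1 and Mertk were higher, and Csf1r did not pass an adjusted p ≤ 0.05 (edgeR). B cell, NK cell, dendritic cell and melanoma markers summed to at most 1.71 CPM in every library. Neutrophil markers summed to 4.28 to 5.72 CPM without IFNβ and 0.208 to 0.985 CPM with it, and T cell markers to 3.75 to 5.05 CPM without and 8.06 to 9.96 CPM with it. Cd4 alone carried the T cell sum, since Cd3e, Cd3d and Cd8a had 0 or 1 counts in every library. Nearly all of the neutrophil sum without IFNβ came from S100a8. Its mean was 5.03 CPM in untreated control and 4.49 with eGFP supernatant, against 0.439 with Ifnb1eGFP supernatant and 0.272 with rIFNβ. The 3 fibroblast markers summed to 22.6 to 65.1 CPM. The part of these cells in the results was not tested. In RNA from whole cultures, fewer cells expressing a gene and less of its RNA per cell cannot be told apart.

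Proteins of the PYHIN family typically pair an N-terminal pyrin domain, which binds other pyrin domains, with a C-terminal HIN domain that binds DNA. AIM2 senses double-stranded DNA in the cytosol and builds an inflammasome through the adaptor ASC and caspase-1, while other members act largely in the nucleus or in the STING pathway of interferon production. Type I interferon signals through IFNAR1 and IFNAR2 to transcription factors that bind interferon-stimulated response elements (ISRE) in promoters.

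The family lies in 1 cluster on chromosome 1, so its promoters are shown first to let the members be compared before their values are. In GRCm39 with GENCODE M39 genes the cluster ran from 173178445 to 173859456, a span of 681 kb, in the order Aim2, Ifi206, Ifi214, Ifi213, Ifi209, Ifi208, Ifi207, Ifi204, Ifi203-ps, Mndal, Ifi211, Ifi203, Ifi202b and Ifi205. RefSeq promoters (250 bases before to 50 after the start, from a table of build GRCm38.p6) were held for 8 of the 9 members and for 4 of the 5 other family genes. Each was placed in GRCm39 by an exact match of its sequence, and each matched chromosome 1 once. The promoters were searched on both strands for an ISRE core, GAAANNGAAA, and for the GAS element, TTCNNNGAA, where N is any base. Matches of the motifs to each other were not excluded.

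The 10 family genes with an ISRE core on the gene's strand, or with a core that had 1 changed base at the matching place, are shown here because these letters could be set side by side with the responses. Capitals mark the core, with 25 bases on each side, 5′ to 3′ on the strand of the gene.
Ifi208, chr1:173501148-173501207 (+ strand): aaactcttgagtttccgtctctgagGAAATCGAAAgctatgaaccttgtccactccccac
Ifi213, chr1:173426877-173426936 (- strand): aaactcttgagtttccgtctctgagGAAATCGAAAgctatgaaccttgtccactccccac
Ifi206, chr1:173318890-173318949 (- strand): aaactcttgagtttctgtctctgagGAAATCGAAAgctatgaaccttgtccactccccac
Ifi214, chr1:173363568-173363627 (- strand): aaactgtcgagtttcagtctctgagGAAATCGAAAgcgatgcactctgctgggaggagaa
Ifi209, chr1:173458321-173458380 (+ strand): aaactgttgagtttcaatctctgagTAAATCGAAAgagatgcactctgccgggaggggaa
Ifi207, chr1:173569382-173569441 (- strand): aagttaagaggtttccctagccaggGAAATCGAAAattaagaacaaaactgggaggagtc
Ifi211, chr1:173740615-173740674 (- strand): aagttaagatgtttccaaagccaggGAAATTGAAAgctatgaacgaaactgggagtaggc
Ifi205, chr1:173859421-173859480 (- strand): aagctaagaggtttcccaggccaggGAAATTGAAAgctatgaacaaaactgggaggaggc
Ifi203, chr1:173770059-173770118 (- strand): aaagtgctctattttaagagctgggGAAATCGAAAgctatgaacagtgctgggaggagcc
Mndal, chr1:173707755-173707814 (- strand): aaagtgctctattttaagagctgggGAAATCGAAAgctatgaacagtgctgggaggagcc

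An ISRE core was present in 6 of the 8 members with a promoter, namely Ifi213, Ifi208, Ifi207, Ifi211, Ifi203 and Ifi205, and in 3 of the 4 other family genes. Of all 32851 RefSeq promoters of this length, 3.44% held it. These genes are neighbouring copies of related sequence, so they are not independent of each other. On the gene's own strand the core began between 134 and 35 bases before the RefSeq start of transcription in the members. Ifi205 had a further match on the opposite strand, 24 bases after that start. The positions depend on the start used, and GENCODE starts can differ. The Ifi208 and Ifi213 windows shared 60 of 60 bases, and Ifi206 shared 59 with them. The Ifi203 and Mndal windows also shared 60 of 60 bases, and each had 34 bases as in Ifi208. Ifi211, Ifi205 and Ifi207 formed a further group that shared 50 to 54 of 60 bases with each other, and Ifi214 and Ifi209 shared 54. In Ifi209 the letters at the corresponding place carried the change G1T, counted from the first base of the core, and its window had 41 bases as in Ifi208. A core with exactly 1 changed base on either strand was common, and 33.97% of all promoters held at least 1. A GAS element was found in 0 of the 8 members against 8.3% of all promoters, and Ifi202b was the family gene that had it.

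Aim2 was the other member without an ISRE core in its window. Its nearest match lay on the opposite strand 51 bases before the RefSeq start and carried the change A3C. This window lies inside the GENCODE extent of Aim2, which begins at 173178445, and the promoter at that start was not searched. The Aim2 and Ifi208 promoters, those of the members with the smallest and the largest response, are shown whole for comparison. Whether the ISRE core bears on the size of the response was not tested. Capitals mark the ISRE core in Ifi208, and Aim2 has none to mark.
Aim2, chr1:173247920-173248219 (+ strand): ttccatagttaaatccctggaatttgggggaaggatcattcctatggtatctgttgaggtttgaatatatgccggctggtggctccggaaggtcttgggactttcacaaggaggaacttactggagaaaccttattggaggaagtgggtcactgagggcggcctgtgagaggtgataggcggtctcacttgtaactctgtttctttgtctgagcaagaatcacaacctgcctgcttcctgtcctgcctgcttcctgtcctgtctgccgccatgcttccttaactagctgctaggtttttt
Ifi208, chr1:173500981-173501280 (+ strand): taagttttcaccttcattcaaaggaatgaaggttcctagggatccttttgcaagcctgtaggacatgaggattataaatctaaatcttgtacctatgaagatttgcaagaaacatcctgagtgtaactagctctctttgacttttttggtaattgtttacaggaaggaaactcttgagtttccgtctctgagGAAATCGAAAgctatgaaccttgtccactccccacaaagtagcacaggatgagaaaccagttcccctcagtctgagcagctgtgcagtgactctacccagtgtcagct

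**Figure D1:**
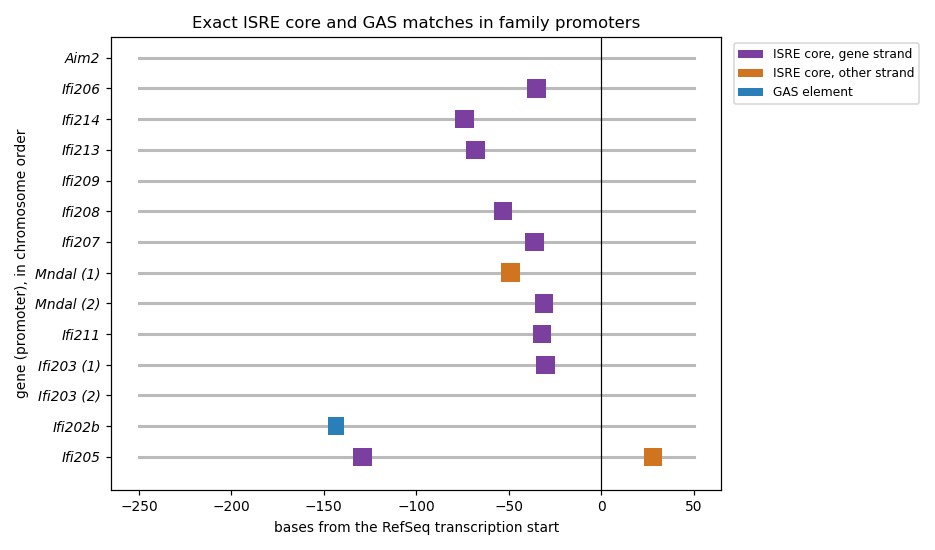
Exact matches of the ISRE core and the GAS element in the RefSeq promoters of the family, with genes in chromosome order and the x axis in bases from the transcription start. Purple and orange boxes are ISRE cores on the gene's and on the other strand, and the blue box in Ifi202b is a GAS element. The Aim2, Ifi209 and second Ifi203 windows hold none.

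RNA of all 9 members was higher with IFNβ from either source, and the members differed widely in how far they rose. With Ifnb1eGFP against eGFP supernatant, 9 of 9 members were higher at an adjusted p ≤ 0.05 (quasi-likelihood test of edgeR, Benjamini-Hochberg adjusted across every gene tested), against 30.1% of all genes. At the limits of log2 fold change ≥ 2 and adjusted p ≤ 0.01, 8 of 9 members were higher, against 2.77% of all genes, and the member short of these limits was Aim2. With rIFNβ against untreated control the same counts were 9 of 9 and 8 of 9, against 30.7% and 2.99% of all genes, and Aim2 was again the exception. The median log2 fold change of the members was 4.05 with Ifnb1eGFP supernatant and 4.64 with rIFNβ, beside 0.03 and 0.04 over all genes tested. All 3 libraries with Ifnb1eGFP supernatant lay above all 3 with eGFP supernatant for 9 of 9 members, against 32.4% of all genes, and the same held for rIFNβ against untreated control, against 36.4%.

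The members together held 0.0453% to 0.0573% of the counts of an untreated library. They held 0.0474% to 0.0871% with eGFP supernatant, 0.543% to 0.693% with Ifnb1eGFP supernatant and 0.566% to 0.616% with rIFNβ. The groups with IFNβ did not overlap those without it. When the counts of all 14 family genes were summed to 1 gene and tested in the same way, the sum rose 10.2-fold with Ifnb1eGFP against eGFP supernatant (log2 fold change 3.35, SE 0.218, adjusted p = 1.68e-07, edgeR) and 12.3-fold with rIFNβ against untreated control (log2 fold change 3.62, SE 0.221, adjusted p = 8.78e-08, edgeR). This sum does not depend on how reads were divided among the family genes.

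The values by library are given for every member in CPM, scaled by TMM factors, in the order of replicates 1, 2 and 3. The members are taken from the smallest to the largest response. The last 3, Ifi205, Ifi213 and Ifi208, had few counts without IFNβ. Aim2, the first, had a mean of 32 CPM in untreated control. Ifi203 with 31.7, Ifi211 with 38.9 and Ifi204 with 110 CPM were at a like or higher level there and rose more.

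Aim2, the cytosolic DNA sensor, lies at chr1:173178445-173293930 on the + strand (ENSMUSG00000037860). It had 32.4, 32.0 and 31.6 CPM in untreated control, 31.5, 37.2 and 35.2 with eGFP supernatant, 64.7, 52.1 and 57.0 with Ifnb1eGFP supernatant and 57.3, 54.9 and 57.7 with rIFNβ. The libraries with IFNβ were all above those without it, and the spread within groups was small beside the difference. Its log2 fold change was 0.74 with Ifnb1eGFP against eGFP supernatant (SE 0.078, adjusted p = 8.76e-06, edgeR), a 1.67-fold rise, and 0.82 with rIFNβ against untreated control (SE 0.0786, adjusted p = 3.75e-06, edgeR). Its annotated extent overlaps Cadm3 on the opposite strand, and Cadm3 had 0 or 1 counts in every library. Whether the counting used strand is not given in the sources used here.

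Ifi207, a family member with a long repetitive middle region, lies at chr1:173550990-173569383 on the - strand (ENSMUSG00000073490) and was the family gene with the most counts without IFNβ. It had 307.7, 283.0 and 250.5 CPM in untreated control and 295.4, 353.7 and 252.4 with eGFP supernatant. It rose to 1461, 1231 and 1257 CPM with Ifnb1eGFP supernatant and to 1312, 1241 and 1190 with rIFNβ. No library with IFNβ overlapped one without it. The log2 fold change was 2.13 (SE 0.121, adjusted p = 5.98e-08, edgeR) for Ifnb1eGFP against eGFP supernatant and 2.15 (SE 0.122, adjusted p = 4.85e-08, edgeR) for rIFNβ against untreated control. Of its 60 window bases, 29 were as in Ifi208, with the same letters in the core itself.

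Ifi204, a nuclear and cytosolic member linked to STING signaling, lies at chr1:173574859-173594610 on the - strand (ENSMUSG00000073489). Untreated control had 127.1, 107.9 and 96.0 CPM, and eGFP supernatant had 122.0, 241.1 and 102.1. The values were 1703, 1360 and 1476 CPM with Ifnb1eGFP supernatant and 1471, 1385 and 1438 with rIFNβ. Replicate 2 with eGFP supernatant stood above the others without IFNβ and still far below every library with it. The log2 fold changes were 3.29 (SE 0.274, adjusted p = 1.34e-06, edgeR) and 3.70 (SE 0.28, adjusted p = 5.38e-07, edgeR) for the supernatant and the recombinant comparison.

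Ifi203, a nuclear HIN-domain protein, lies at chr1:173747971-173770436 on the - strand (ENSMUSG00000039997). It had 35.8, 33.3 and 26.2 CPM in untreated control and 31.3, 75.5 and 25.9 with eGFP supernatant. It reached 575.7, 452.8 and 482.3 CPM with Ifnb1eGFP supernatant and 538.7, 494.7 and 501.1 with rIFNβ. The rise was 11.4-fold with Ifnb1eGFP against eGFP supernatant and 16.1-fold with rIFNβ against untreated control (adjusted p = 4.49e-06 and 1.72e-06, edgeR).

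Ifi211, listed also as Mnda after the human myeloid nuclear differentiation antigen, lies at chr1:173723911-173740612 on the - strand (ENSMUSG00000026536). It had 47.9, 37.0 and 31.7 CPM in untreated control and 43.2, 102.9 and 33.7 with eGFP supernatant. With Ifnb1eGFP supernatant it had 1117, 895.7 and 961.1 CPM, and with rIFNβ 1013, 935 and 954. Its log2 fold changes of 4.05 (SE 0.363, adjusted p = 2.42e-06, edgeR) and 4.64 (SE 0.375, adjusted p = 9.23e-07, edgeR) were the medians of the family. It is also the member whose reads are hardest to place, since 68.5% of the 50-base stretches of its transcripts occur in another family gene, most often in Ifi205.

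Ifi209, the member with the altered core, lies at chr1:173458380-173475494 on the + strand (ENSMUSG00000043263). Untreated control had 20.0, 14.5 and 13.2 CPM, and eGFP supernatant had 19.9, 63.0 and 14.8. The values were 1099, 863.8 and 959.7 CPM with Ifnb1eGFP supernatant and 960.2, 871.9 and 907.6 with rIFNβ. The rises were 29.9-fold and 57.6-fold (log2 fold change 4.90, SE 0.473, adjusted p = 4.37e-06, and 5.85, SE 0.498, adjusted p = 1.45e-06, edgeR). They were larger than those of Ifi207, Ifi204, Ifi203 and Ifi211, whose values are given above. Where the promoters of these members were held, they have an unchanged core. Whether the core bears on the response of Ifi209 was not tested. Without eGFP supernatant replicate 2 the first log2 fold change was 5.81. Of its 50-base stretches, 33.8% occur in Ifi214, which had at most 1061.78 counts in any library, against 34784.96 to 44188.68 counts of Ifi209 with Ifnb1eGFP supernatant.

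Ifi205, a nuclear member, lies at chr1:173839549-173859456 on the - strand (ENSMUSG00000054203) at the distal end of the cluster. It had 2.07, 1.26 and 0.828 CPM in untreated control and 1.87, 9.48 and 1.03 with eGFP supernatant. It reached 344.8, 263.3 and 267.1 CPM with Ifnb1eGFP supernatant and 313.6, 280.6 and 266.3 with rIFNβ. The log2 fold changes were 6.13 (SE 0.574, adjusted p = 3.43e-06, edgeR) and 7.74 (SE 0.653, adjusted p = 1.35e-06, edgeR).

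Ifi213 and Ifi208, which RefSeq lists also as Pydc4 and Pydc3, rose from the lowest levels and by the most. Ifi213 lies at chr1:173393846-173426881 on the - strand (ENSMUSG00000073491). It had 1.14, 0.176 and 0.166 CPM in untreated control (5.66 to 35.53 counts) and 0.96, 4.92 and 0.376 with eGFP supernatant. Its values were 272.3, 213.3 and 254.2 CPM with Ifnb1eGFP supernatant and 249.8, 220.2 and 255.3 with rIFNβ. Replicate 1 of the untreated control lay above the other untreated libraries, and the log2 fold change of 9.03 for rIFNβ (SE 0.691, adjusted p = 5.85e-07, edgeR) became 10.44 without it. With Ifnb1eGFP against eGFP supernatant it was 6.87 (SE 0.571, adjusted p = 1.3e-06, edgeR).

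Ifi208 lies at chr1:173501241-173525961 on the + strand (ENSMUSG00000066677). It had 0.35, 0.527 and 0.166 CPM in untreated control (6.72 to 17.63 counts) and 0.43, 3.02 and 0.251 with eGFP supernatant. It had 245.9, 199.2 and 212.7 CPM with Ifnb1eGFP supernatant and 232.3, 208.8 and 213.8 with rIFNβ. Its log2 fold change was 7.45 (SE 0.484, adjusted p = 1.72e-07, edgeR) for Ifnb1eGFP against eGFP supernatant, a 175-fold rise, and 9.34 (SE 0.575, adjusted p = 9.89e-08, edgeR) for rIFNβ against untreated control. Few counts stand behind the untreated values, so the size of this fold is less certain than its direction.

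**Figure D2:**
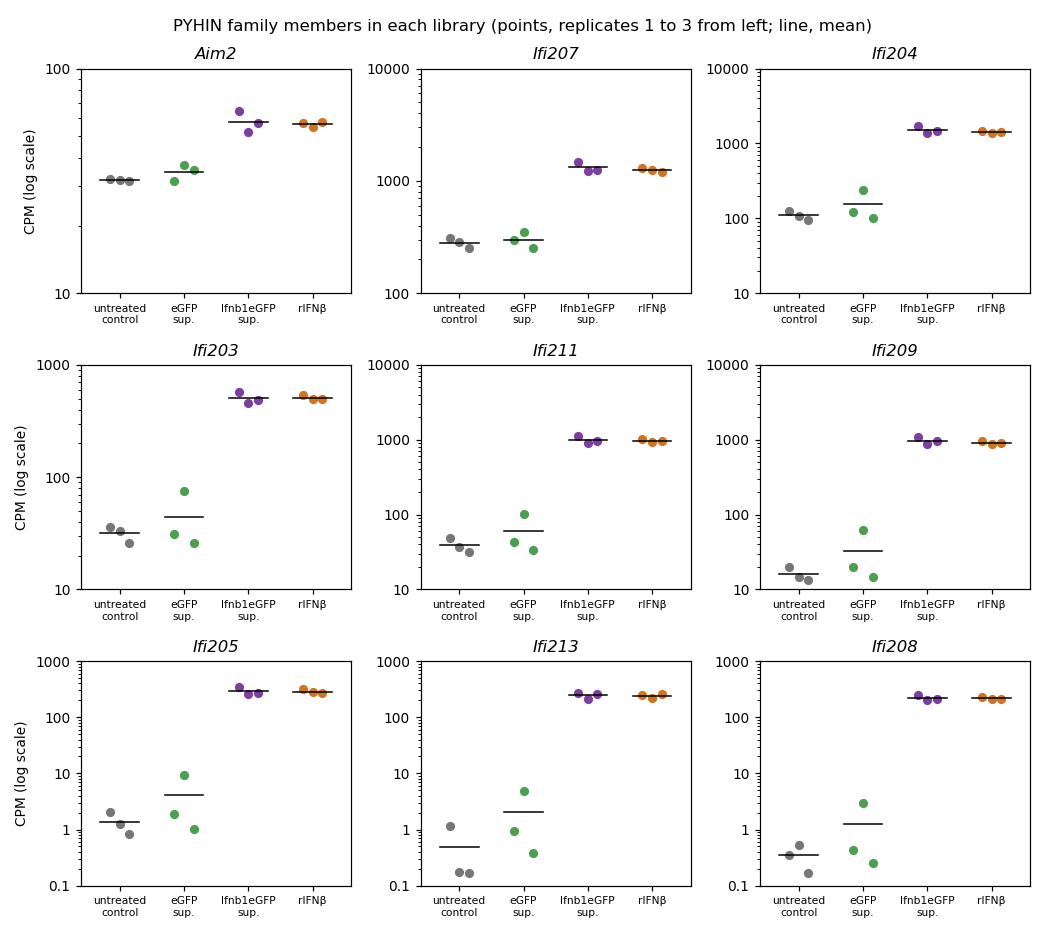
CPM of the 9 members in each of the 12 libraries, on a log scale that differs between panels. Points are libraries in the order of replicates 1 to 3 from the left, and lines are means of 3. In every panel all 6 libraries with IFNβ lie above all 6 without it, and replicate 2 with eGFP supernatant is the highest of those without it.

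The members stood in the same order by log2 fold change in both IFNβ comparisons, which have no library in common. The order from the smallest to the largest was Aim2, Ifi207, Ifi204, Ifi203, Ifi211, Ifi209, Ifi205, Ifi213 and Ifi208. Neighbours in this order mostly had overlapping 95% intervals. With Ifnb1eGFP against eGFP supernatant the interval was 0.59 to 0.9 for Aim2, 1.89 to 2.37 for Ifi207 and 2.75 to 3.82 for Ifi204, and these 3 did not overlap. The interval of Ifi203 was 2.84 to 4.17 and overlapped that of Ifi204, and the interval of Ifi208 was 6.5 to 8.4 and overlapped that of Ifi213 at 5.75 to 7.99. Family genes alike in 59 or 60 of 60 window bases had log2 fold changes with overlapping intervals in this comparison. These were Ifi208, Ifi213 and Ifi206 with 7.45, 6.87 and 6.35, and Ifi203 and Mndal with 3.51 and 3.22. Genes alike in 50 to 54 bases differed more. Ifi207, Ifi211 and Ifi205 had 2.13, 4.05 and 6.13, and Ifi214 and Ifi209 had 7.04 and 4.90. Genes were not tested against each other, and whether the windows bear on the responses was not tested.

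**Figure D3:**
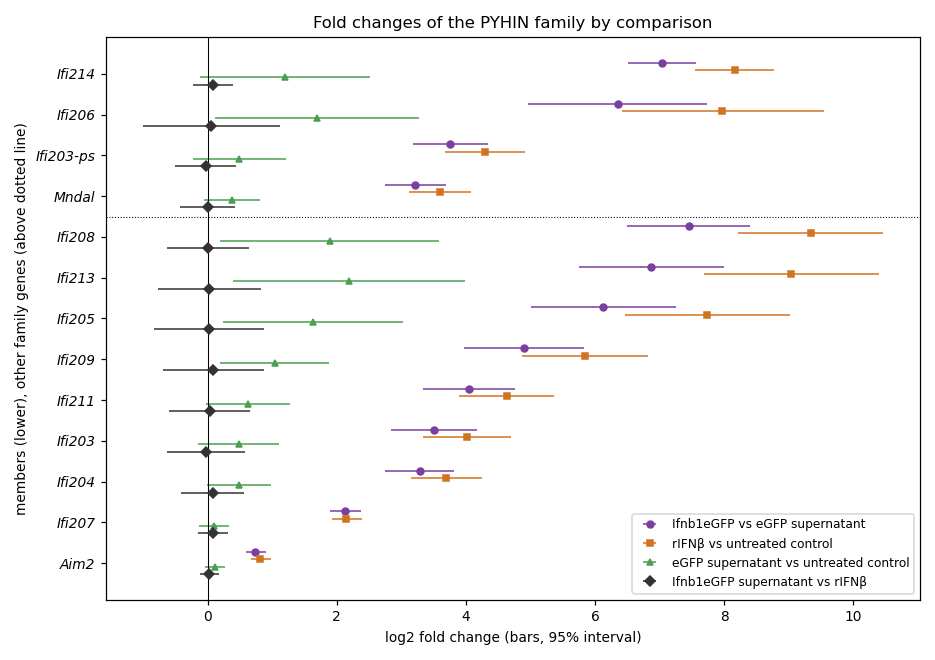
Log2 fold changes of the 9 members and of the 4 other family genes that were tested, with bars for the 95% interval. Both IFNβ comparisons lie right of 0 for every gene, from 0.74 for Aim2 to 9.34 for Ifi208. The comparison of the IFNβ sources lies within -0.03 to 0.09 for all 13 genes, and the intervals for eGFP supernatant are wide.

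Per kilobase of annotated exon, the order of levels differed between the states with and without IFNβ. In untreated control Ifi207 led with 76.7 ± 7.86 CPM per kb (SD, n = 3), followed by Ifi204 with 30.1 ± 4.29 and Ifi211 with 20.7 ± 4.39. Aim2, Ifi209 and Ifi203 followed with 4.86 ± 0.0595, 4.36 ± 0.987 and 4.18 ± 0.659 CPM per kb (SD, n = 3), and these 3 did not differ beyond their spread. Ifi205 had 0.324 ± 0.147, Ifi208 0.0661 ± 0.0344 and Ifi213 0.0537 ± 0.061 CPM per kb, and the last pair overlapped.

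With Ifnb1eGFP supernatant Ifi211 led with 528 ± 60.5 CPM per kb (SD, n = 3), ahead of Ifi204 with 413 ± 47.5, Ifi207 with 360 ± 34.5 and Ifi209 with 267 ± 32.5. These 4 held this order in each of the 3 libraries and also in each library with rIFNβ. Ifi205 with 68.3 ± 10.8 and Ifi203 with 66.3 ± 8.45 did not differ beyond their spread. Ifi208 with 41.7 ± 4.57 and Ifi213 with 26.8 ± 3.28 came next, and Aim2, which had stood level with Ifi209 and Ifi203 in untreated control, was last with 8.81 ± 0.97. The first place depended on the length used, since per kilobase of the longest transcript Ifi204 had 625 and Ifi211 528 CPM per kb. The near-equal untreated levels depended on it too, since per kilobase of the longest transcript Aim2 had 9.22, Ifi203 6.25 and Ifi209 4.49 CPM per kb.

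The composition of the family's RNA differed between the states with and without IFNβ. Ifi207 made up 50.2% ± 0.899 (SD, n = 3) of the family's counts in untreated control and 18.5% ± 0.576 and 18.1% ± 0.578 with Ifnb1eGFP supernatant and rIFNβ. Ifi204 held a nearly constant part, with 19.7% ± 0.534, 21.2% ± 0.0622 and 20.8% ± 0.365 in the same groups. Ifi209 went from 2.83% ± 0.326 to 13.6% ± 0.202 and 13.3% ± 0.132, and Ifi211 from 6.91% ± 0.659 to 13.9% ± 0.0397 and 14.1% ± 0.0187. Aim2 went from 5.77% ± 0.608 to 0.812% ± 0.00834 and 0.823% ± 0.0264 (SD, n = 3), although its own RNA rose. These shares are per count and not per length.

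**Figure D4:**
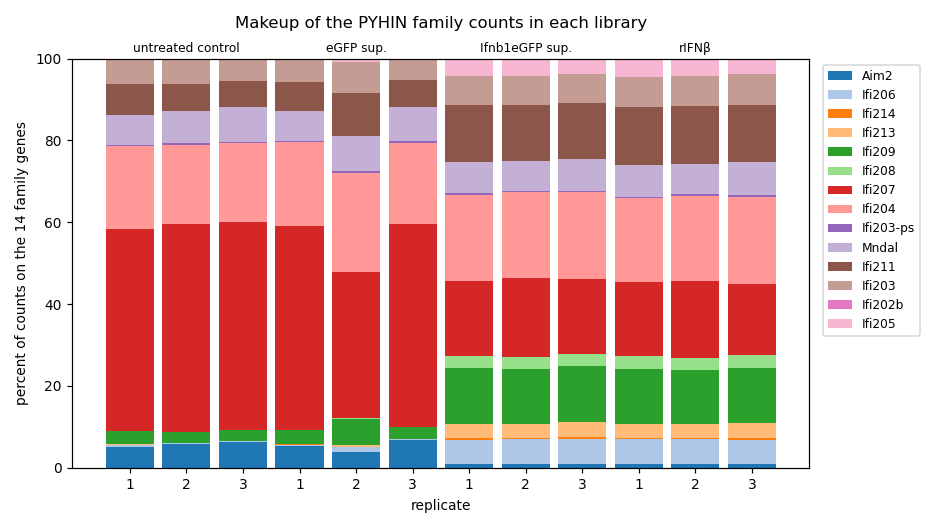
Percent of the counts on the 14 family genes that fell on each gene, per library. Ifi207 takes about 50% without IFNβ and about 18% with it, and the 6 libraries with IFNβ are alike. The bar of eGFP supernatant replicate 2 lies between both kinds.

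Levels under IFNβ were compared between Ifnb1eGFP supernatant and rIFNβ at the same concentration. These groups differ in melanoma cell products and in the source of the protein, secreted or recombinant, which cannot be told apart. Whether the response to IFNβ differs is the question of the interaction below. The member log2 fold changes ran from -0.02 for Ifi203 to 0.09 for Ifi209, with a median of 0.03, and the libraries of the groups overlapped for all 9 members. By edgeR 0 of 9 members passed an adjusted p ≤ 0.05 and 0 an unadjusted p under 0.05, and DESeq2 also called 0. Over all genes 0.14% were higher at the adjusted threshold and 8.57% had an unadjusted p under 0.05. The approximate 95% intervals, which are somewhat narrow for their SE, set roughly which differences were not excluded in this fit. They were narrow for Aim2 (-0.12 to 0.18) and Ifi207 (-0.15 to 0.31) and wide for Ifi205 (-0.83 to 0.88) and Ifi213 (-0.77 to 0.83). The spread behind them was estimated from all 12 libraries, including eGFP supernatant replicate 2, which is in neither group. For Ifi205 the SE was 0.436, while the group means were 292 and 287 CPM (SD 46 and 24.3, n = 3). The bounds therefore do not give the smallest difference that the compared libraries alone could show.

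Supernatant without added IFNβ was compared as eGFP supernatant against untreated control. By edgeR 0 of 9 members passed an adjusted p ≤ 0.05, and DESeq2 called 0, while 0.246% of all genes were higher at this threshold. The log2 fold changes ran from 0.10 for Ifi207 to 2.19 for Ifi213, with a median of 0.63. At an unadjusted p under 0.05 were 3 of 9 members, against 8% of all genes. These were Ifi213, Ifi209 and Ifi205, with adjusted p = 0.576, 0.566 and 0.599 (edgeR). The higher values came from 1 library. In replicate 2 with eGFP supernatant all 9 members were above the other 5 libraries without IFNβ, a place this library took for 18.4% of all genes tested.

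The excess of that library over the mean of the other eGFP supernatant libraries stood in the order of the members' response to rIFNβ, a comparison that does not use this library. It was 1.11-fold for Aim2, 1.29-fold for Ifi207, 2.15-fold for Ifi204, 2.64-fold for Ifi203 and 2.68-fold for Ifi211. It was 3.63-fold for Ifi209, 6.54-fold for Ifi205, 7.37-fold for Ifi213 and 8.88-fold for Ifi208. Its level was 1.38% of the Ifnb1eGFP supernatant mean for Ifi208, 2% for Ifi213, 26.9% for Ifi207 and 64.1% for Aim2. Other interferon-stimulated genes moved in the same library. Irf7 had 45.2 CPM there against 11.0 and 6.63 in the other eGFP supernatant libraries, and Usp18 had 29.8 against 7.35 and 4.74. Of the 417 genes past the fold and p limits with Ifnb1eGFP supernatant, 44.6% were at least 1.5-fold above the other eGFP supernatant libraries in it, against 4.16% of all genes tested. The labels do not set this library apart, and the cause was not tested.

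Without replicate 2, the eGFP supernatant comparison of the members had a median log2 fold change of 0.02. Ifi213 had 0.54 (SE 0.694), Ifi208 0.02 (SE 0.452) and Ifi203 -0.15 (SE 0.142), each with an adjusted p of 1 (edgeR). The same omission raised the response to Ifnb1eGFP supernatant, and 9 of 9 members passed an adjusted p ≤ 0.05 and 8 of 9 the stricter limits with and without it. The log2 fold change of Ifi208 went from 7.45 to 9.32 (SE 0.238), that of Ifi213 from 6.87 to 8.52 (SE 0.421) and that of Ifi205 from 6.13 to 7.65 (SE 0.304). That of Ifi209 went from 4.90 to 5.81 (SE 0.216), that of Ifi211 from 4.05 to 4.69 (SE 0.196), that of Ifi203 from 3.51 to 4.14 (SE 0.164) and that of Ifi204 from 3.29 to 3.76 (SE 0.146). For rIFNβ against untreated control, which does not use this library, Ifi208, Ifi213 and Ifi205 had 9.34, 9.03 and 7.74. Aim2 had 0.80 without the library and Ifi207 2.26.

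**Figure D5:**
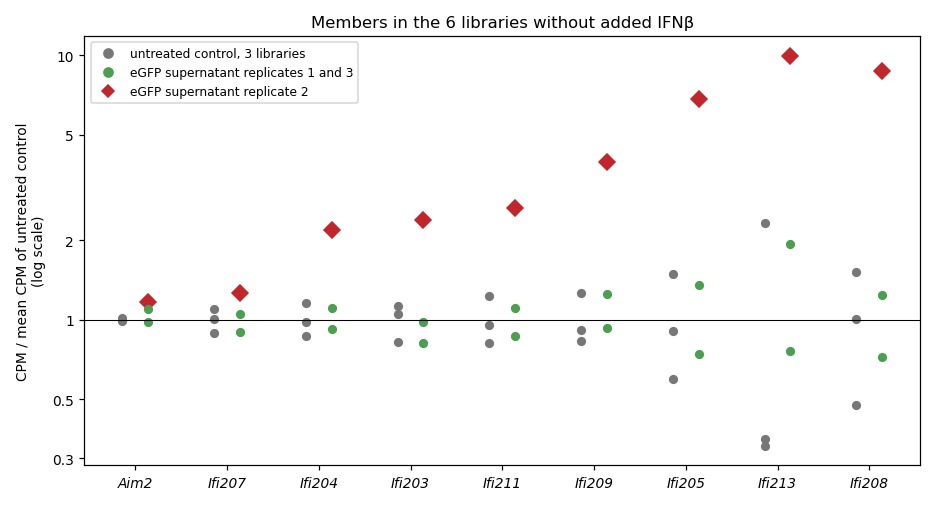
CPM of the members in the 6 libraries without added IFNβ, divided by the mean of the untreated control, on a log scale. Grey and green points are untreated control and eGFP supernatant, and the red diamond is eGFP supernatant replicate 2. The diamond is the highest point for all 9 members.

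The interaction sets the rise with Ifnb1eGFP over eGFP supernatant against the rise with rIFNβ over untreated control. It shares its libraries with the comparisons above. The member values ran from -2.16 for Ifi213 to -0.02 for Ifi207, with a median of -0.59, all below 0. By edgeR 0 of 9 members passed an adjusted p ≤ 0.05, with 0% of all genes higher, and 0 had an unadjusted p under 0.05, against 4.4% of all genes, and DESeq2 called 0. Without eGFP supernatant replicate 2 the median was -0.01, with Ifi208 at -0.01 (SE 0.463) and Ifi213 at -0.51 (SE 0.726).

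The other family genes behaved as the members did. All 4 that were tested were higher at the stricter limits in both IFNβ comparisons. Ifi206 had 0.753 to 13.2 CPM with eGFP supernatant and 402 to 487 CPM with Ifnb1eGFP supernatant, a log2 fold change of 6.35 (SE 0.708, adjusted p = 1.44e-05, edgeR). Mndal had 42.7 to 85.6 CPM and 458 to 609 CPM in the same groups, with a log2 fold change of 3.22 (SE 0.24, adjusted p = 5.35e-07, edgeR). Ifi203-ps had a log2 fold change of 3.76 (SE 0.297, adjusted p = 8.53e-07, edgeR), but 59.8% of its 50-base stretches occur in genes outside the family and a further part in Ifi203, so its counts are uncertain. Ifi214 had 2 to 3.71 counts in untreated control and 776.31 to 993.67 with rIFNβ. Ifi202b had 0 or 1 counts in every library and was not tested.

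How far the members are separate measurements was read from the deposited values. RSEM divides a read that fits several genes, which leaves values that are not whole numbers. Aim2 had whole values in all 12 libraries and shared none of its 50-base stretches with another family gene. Ifi209 had 10 and Ifi204 11 values of 12 that were not whole, and the other 6 members had 12 of 12, beside 12% of all values in the table. That share is lowered by genes without counts, whose zeros are whole, since 30258 of 56748 genes had at least 1 count. The shared part of the transcripts was 21.4% for Ifi208, 19.7% for Ifi204, 18.3% for Ifi205, 12.5% for Ifi203, 11.9% for Ifi213 and 5.7% for Ifi207. The rises of Ifi211, Ifi205, Ifi204 and their closest copies are uncertain in size to the extent that reads were divided among them.

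The genes that flank the cluster at the Aim2 end had almost no counts. Fcer1a, Ackr1 and Cadm3 had 0 or 1 counts in every library and were not tested.

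Most of the listed inflammasome genes rose as well. The list held Pycard, Casp1, Casp8, Gsdmd, Ninj1, Il1a, Il1b and Il18. It also held Casp4 and the genes of other inflammasome sensors, Nlrp3, Nlrc4, Nlrp1b, Mefv and Naip5, which are not partners of AIM2. Of 14 listed genes all were tested, and at an adjusted p ≤ 0.05 there were 12 higher and 0 lower with Ifnb1eGFP against eGFP supernatant, with the same counts for rIFNβ against untreated control (median log2 fold change 0.79 and 0.92). Over all genes tested, 30.1% were higher and 25% lower with Ifnb1eGFP against eGFP supernatant, and 30.7% and 24.6% with rIFNβ against untreated control. The 12 were not the same genes in both. Pycard passed only with the supernatant (adjusted p = 0.0473, and 0.122 with rIFNβ, edgeR) and Il1a only with rIFNβ (adjusted p = 0.0418, and 0.117 with the supernatant, edgeR), and both are named because of these values. Il18, the inflammasome cytokine, went from 4.35 ± 0.363 to 19.4 ± 1.43 CPM (SD, n = 3; log2 fold change 2.16, SE 0.087, adjusted p = 4.2e-09, edgeR). Casp4, which encodes the caspase of the non-canonical inflammasome, went from 20.6 ± 1.8 to 67.8 ± 6.8 CPM (SD, n = 3; log2 fold change 1.72, SE 0.083, adjusted p = 1.67e-08, edgeR). The rise of Aim2 itself, 0.74, was close to the median of this list.

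Among 13 listed genes of DNA sensing and interferon production, 8 were higher and 2 lower with Ifnb1eGFP against eGFP supernatant, and the same counts were found with rIFNβ against untreated control, beside the shares of all genes just given. Irf7, the transcription factor that amplifies interferon production, had a log2 fold change of 6.15 (SE 0.642, adjusted p = 8.39e-06, edgeR), and Zbp1, a sensor of Z-form nucleic acid, 5.12 (SE 0.396, adjusted p = 7.25e-07, edgeR). The 2 that fell were Enpp1, which degrades the second messenger cGAMP (-0.97, SE 0.124, adjusted p = 4.15e-05, edgeR), and Sting1, which encodes the receptor of cGAMP (-0.18, SE 0.0677, adjusted p = 0.0444, edgeR). Sting1 had -0.13 with rIFNβ against untreated control and was not among the 2 that fell there (adjusted p = 0.141, edgeR).

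Of 12 listed genes of the interferon signal and its regulators, 8 were higher and 1 lower with Ifnb1eGFP against eGFP supernatant, and 9 and 2 with rIFNβ against untreated control, beside 30.1% and 25%, and 30.7% and 24.6%, of all genes. Usp18, which restrains the receptor, had a log2 fold change of 4.30 (SE 0.532, adjusted p = 3.33e-05, edgeR). Ifnar1, the receptor chain, fell from 137 ± 3.11 to 93.3 ± 1.75 CPM (SD, n = 3; log2 fold change -0.55, SE 0.0384, adjusted p = 2.93e-07, edgeR).

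The level of the 9 members rose and fell together across the 12 libraries, with a Pearson's r between 0.9849 for Aim2 and 0.9999 for Ifi204 against the mean of the members, which includes the gene itself. The libraries form 2 clusters, with and without IFNβ, so these values describe that split. The genes outside the family most like it over the same 12 libraries were Irgm1 and Gm5431 (r = 0.9997), Slfn8 (0.9996), Trim30a (0.9995) and Ddx60 (0.9994). Irgm1, an interferon-inducible GTPase, went from 47.2 CPM in untreated control to 620 with Ifnb1eGFP supernatant and 600 with rIFNβ, and had 110 CPM in eGFP supernatant replicate 2. Ddx60, a helicase gene, went from 10.4 to 331 and 325 CPM and had 28.2 CPM in that library.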

How the data were processed

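RNA of 12 libraries of M2-like polarized BMDM was sequenced (TruSeq Stranded Total RNA). The authors deposited unnormalized RSEM (v1.3.3) expected counts per Ensembl gene. Their stated genome, GRCm39 mm10, mixes 2 builds, and positions here are those of GRCm39 (GENCODE M39). The 12 columns were assigned by their descriptions, and 0 were left over. The labels do not say what a replicate number stands for.

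Expected counts were rounded and analysed in R 4.3.3 with edgeR 4.0.16. After filterByExpr (15033 genes kept) and TMM scaling, all 12 libraries entered 1 quasi-likelihood fit, with Benjamini-Hochberg adjustment. SE was taken as the size of the log2 fold change divided by the square root of F. An exact permutation test of 3 against 3 libraries cannot go below p = 0.1. The fit was also run on data simulated from its own estimates of spread, with small changes in few genes. These data hold more and larger changes, so that run does not test the calls made here. Depth limits the low members, whose untreated values rest on few counts, and intervals cover the spread between libraries.

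Deviations from the group mean in libraries with the same number had a positive r in every comparison. It was 0.167, 0.246 and 0.207 for Ifnb1eGFP supernatant against rIFNβ, the only comparison with all pairs above 0.1. For Ifnb1eGFP against eGFP supernatant it was 0.0892, 0.252 and 0.244, and in the remaining comparisons 0.0765 to 0.124. Libraries with unlike numbers were not compared. Alternatives were DESeq2 1.42.0, RLE factors, no filter on low counts, a replicate block, only the compared conditions, looser limits, each library left out, the longest transcript as length, and the family summed.

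Genes named were all members and other family genes, and the genes flanking the cluster. Also named were the 2 largest rises and falls at an adjusted p ≤ 0.05 of 3 lists (inflammasome, DNA sensing, interferon signal). The 5 genes most like the members by Pearson's r were named too. The members and lists were chosen with earlier results of these data known. Protein sequences were not used here, and 2 of the genes this rule names are not reported here.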

Additional observations from a re-analysis of the deposited data

How the results depend on the processing

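The counts of members called in the 5 comparisons (9, 9, 0, 0 and 0 at an adjusted p ≤ 0.05 and 8, 8, 0, 0 and 0 at the stricter limits) were the same under DESeq2, without a filter on low counts, with RLE factors, with the replicate block, with only the compared conditions, with each library left out, and a log2 fold change ≥ 1 with adjusted p ≤ 0.05. No member's call changed. In the IFNβ comparisons no member changed sign. Where members were not called, leaving out 1 library turned the sign of some values. For Ifnb1eGFP supernatant against rIFNβ these ranged over -0.05 to 0.11 for Aim2, -0.04 to 0.12 for Ifi213, -0.08 to 0.07 for Ifi208, 0 to 0.12 for Ifi207, -0.01 to 0.15 for Ifi204, -0.05 to 0.1 for Ifi211, -0.13 to 0.05 for Ifi203 and -0.11 to 0.09 for Ifi205. For eGFP supernatant against untreated control they ranged over -0.03 to 0.21 for Ifi207, -0.01 to 0.91 for Ifi211 and -0.15 to 0.75 for Ifi203, and for the interaction over -0.13 to 0.11 for Ifi207, -0.64 to 0.06 for Ifi204, -0.88 to 0.05 for Ifi211 and -0.77 to 0.13 for Ifi203, where the sign turned in each without eGFP supernatant replicate 2. With the replicate number as a block the median log2 fold change of the members was 4.13, 4.66, 0.03, 0.56 and -0.53, beside 4.05, 4.64, 0.03, 0.63 and -0.59 without it, and it changed no call. With the longest transcript as length, 6 of 9 levels per kilobase moved by more than their SD. Depth limits Ifi208, Ifi213 and Ifi205 in the untreated control, where 5.66 to 65.45 counts stand behind a value.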
